A study of Mus musculus with 12 samples.

Results

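The IL-4 response of Keap1-deficient macrophages was measured on 4 of the 12 arrays of the study, the 2 arrays of untreated KpCKO bone marrow-derived macrophages (BMDMs), called Con, and the 2 arrays of KpCKO BMDMs stimulated with IL-4 for 6 h, called M2. These arrays were chosen by genotype and stimulus alone, and M2 was paired with Con by replicate number. KpCKO cells came from C57BL/6 mice aged 8 weeks that carried floxed *Keap1* alleles (*Keap1* flox/flox) and a *LysM*-Cre transgene. Cre under the lysozyme M locus acts in myeloid cells, so the deletion is not restricted to macrophages and depends on how completely Cre acted in the culture. All cells, untreated or stimulated, were grown from bone marrow with M-CSF for 7 days. There were 2 independent cultures, the first from male and the second from female mice, each with 1 animal of either genotype, and Con and M2 cells of the same number came from the same mouse. WT cells, from C57BL/6 mice of the same age, gave 4 further arrays of the same 2 conditions, which are used below only where the responses are compared, and 4 arrays of cells stimulated with LPS and IFN-γ enter only the estimate of the spread.

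Interleukin-4 binds a receptor that signals through JAK kinases to the transcription factor STAT6, and macrophages exposed to it take on a state called alternative or M2 activation, with high expression of arginase 1, resistin-like and chitinase-like proteins, lectin receptors and a set of chemokines. Keap1 is the adaptor through which a ubiquitin ligase marks the transcription factor Nrf2 for degradation. When Keap1 is missing, Nrf2 accumulates and its targets, genes of glutathione synthesis, thioredoxin reduction, NADPH supply and heme breakdown, are transcribed. All levels below are log2 of the signal divided by the 75th percentile signal of the same array, so 0 is the 75th percentile, and a log2 difference of 1 is a doubling. A gene was called when its difference passed limma with an adjusted p under 0.05 over all genes tested.

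The labels and the arrays were in accord for the deleted gene. *Keap1* had levels of 1.79 and 1.71 on the KpCKO Con arrays and 1.36 and 0.94 on the KpCKO M2 arrays, against 3.25 and 3.15 in WT Con and 3.06 and 2.85 in WT M2. KpCKO was lower by 1.46 in Con and by 1.81 in M2, with adjusted p of 0.0335 and 0.0161. Whether the 1 probe of *Keap1* lies in the deleted part is not known here. Of 14 macrophage markers, 13 were well above background on all 4 KpCKO arrays, and the remaining one, *Cd68*, had no probe matched to it. The 75th percentile signal lay between 965.7 and 1164.4 on the 4 arrays, 67.31 to 71.43% of probes were well above background, no probe was saturated, and the 2 cultures correlated at r = 0.989 in Con and 0.988 in M2 across genes. The slide is a limit on every value of the response, since all Con arrays lay on 1 slide and all M2 arrays on another slide that was scanned on another day, so IL-4 and slide cannot be told apart.

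The RNA of many genes differed between M2 and Con in KpCKO BMDMs, and the largest differences were rises. Of 22351 genes tested, 2290 (10.2%) were called, 1272 higher (5.69%) and 1018 lower (4.55%) in M2. The counts of every gene list below are to be read beside these shares. The median difference over all genes was 0.01. Among genes called higher, 40 differed more than 16-fold, 186 between 4-fold and 16-fold, 421 between 2-fold and 4-fold and 625 less than 2-fold. Among genes called lower, none differed more than 16-fold, 28 were between 4-fold and 16-fold, 317 between 2-fold and 4-fold and 673 under 2-fold. The median of the genes called higher was 1.05 in culture 1 and 0.98 in culture 2, and that of the genes called lower was -0.74 and -0.86. Without any test, 629 genes (2.81%) exceeded a 2-fold rise in each culture and 350 (1.57%) a 2-fold fall. The number of calls was sensitive to the number of arrays: it was 580 without Con culture 1, 489 without Con culture 2, 817 without M2 culture 1 and 604 without M2 culture 2, and 690 with the local background of each spot removed by another method (normexp). With normexp 37 of the 104 calls of genes named here were lost, and its larger shifts are given below.

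The strongest response among named genes measured on all 4 arrays was that of *Arg1*, arginase 1, which splits arginine into ornithine and urea. Its levels were -6.80 and -6.53 in Con and 3.69 and 3.94 in M2 (cultures 1 and 2). Both M2 arrays stood far above both Con arrays, a rise of 10.48 ± 0.31, or 1428-fold, with an adjusted p of 4.93e-05. Values after ± here and below are the SE of the limma fit, with n = 2 cultures in each group. This SE rests on the spread pooled over all groups, not on the spread between the 2 KpCKO cultures alone. *Retnla*, a secreted resistin-like protein, was not above background on either Con array (-7.94 and -9.15) and reached 2.60 and 6.23 in M2. It was at least 2988-fold higher in M2 (adjusted p = 0.002), taking the lowest signal measured above background as its level in Con. The M2 level of *Retnla* was much higher in culture 2 than in culture 1, whereas those of *Arg1* were close together.

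The other effector genes of alternative activation followed. *Pdcd1lg2*, a ligand of the inhibitory receptor PD-1 on T cells, had levels of -7.63 and -6.85 in Con, where 1 of the 2 arrays was above background, and 0.39 and 0.43 in M2 (log2 difference 7.65 ± 0.52, adjusted p = 0.00102). With its lower Con value raised to the lowest signal above background the difference was 7.40, and with normexp it was 4.64, still called. *Cdh1*, the adhesion protein E-cadherin, was at background in Con (-7.11 and -7.28) and at -0.83 and 0.19 in M2, at least 112-fold higher (adjusted p = 2.84e-04). With normexp the log2 differences of *Retnla* and *Cdh1* were 8.36 and 3.66, both called. *Mrc1*, the mannose receptor of macrophages, rose from 0.91 and 0.38 to 4.56 and 4.48, a difference of 3.87 ± 0.14 with an adjusted p of 9.52e-05. In these genes the groups did not overlap. Such a separation adds no support to the call of any gene named here, since the calls rest on the same values.

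*Chil3* and *Chil4*, which encode chitinase-like lectins, rose by 4.81 ± 0.23 and 5.04 ± 0.25 (adjusted p = 2.70e-04 and 3.03e-04). Their sequences are nearly identical, so how much of each signal belongs to which gene is uncertain. *Flt1*, a receptor of vascular endothelial growth factor, had -1.52 and 0.38 in Con and 3.85 and 5.40 in M2, higher in culture 2 in both conditions, and rose by 5.20 ± 0.62. *Slc7a2*, a transporter of arginine, *Mgl2*, a lectin that binds galactose, *Rnase2a*, an eosinophil-type ribonuclease, and *Ch25h*, which hydroxylates cholesterol, rose by 4.30, 4.03, 3.90 and 2.23. In all, 12 of 23 tested effectors were called higher and none lower, with a median of 3.64 against 0.01 over all genes. Setting *Retnla* and *Cdh1* to their bounds could not move this median, since both stay above the middle member. The median was 2.09 in culture 1 and 4.09 in culture 2 and lay between 1.92 and 4.01 under the alternative settings. The middle member, which sets it, was the dim and uncalled *Cd209e*, with differences of 1.34 and 5.95 in the 2 cultures. Of these 12 calls, 10 held when any 1 of the 4 arrays was left out, while *Rnase2a* was lost without Con culture 2 (adjusted p = 0.0684), and *Ch25h* without Con culture 2 or either M2 array (highest adjusted p = 0.0801). Members that were not called included *Clec10a*, another galactose lectin, at 0.24 and 2.45 in Con and 2.07 and 4.41 in M2 (adjusted p = 0.0881), *Cd209e* (adjusted p = 0.0921), *Tgm2* (0.117), *Igf1* (0.101) and *Mmp12*, whose difference was 0.01.

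STAT6 binds the palindrome TTCNNNNGAA, and the start regions of 3 strongly responding genes that hold it are shown with each match in capitals, as examples of the motif beside a large response. They are the 250 bases before the RefSeq start on the gene's own strand, in build GRCm38.p6, at chr16:48842359-48842608 (+ strand) for *Retnla*, chr19:29410669-29410918 (+ strand) for *Pdcd1lg2* and chr10:68723496-68723745 (+ strand) for *Tmem26*, a membrane protein gene described below.
Retnla: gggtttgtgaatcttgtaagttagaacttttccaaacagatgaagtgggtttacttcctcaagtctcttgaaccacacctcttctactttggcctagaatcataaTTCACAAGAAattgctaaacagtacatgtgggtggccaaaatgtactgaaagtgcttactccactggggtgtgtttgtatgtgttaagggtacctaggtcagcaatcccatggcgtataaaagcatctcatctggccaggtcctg
Pdcd1lg2: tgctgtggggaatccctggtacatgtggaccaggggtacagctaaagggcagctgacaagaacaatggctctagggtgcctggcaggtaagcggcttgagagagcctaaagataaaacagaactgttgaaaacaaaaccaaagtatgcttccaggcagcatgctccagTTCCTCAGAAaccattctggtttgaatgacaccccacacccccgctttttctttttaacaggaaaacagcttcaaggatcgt
Tmem26: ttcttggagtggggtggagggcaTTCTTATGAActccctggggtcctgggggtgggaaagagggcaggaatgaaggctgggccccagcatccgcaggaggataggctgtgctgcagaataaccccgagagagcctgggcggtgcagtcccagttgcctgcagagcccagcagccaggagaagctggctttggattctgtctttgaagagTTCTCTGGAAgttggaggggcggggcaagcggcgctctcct
The match began 145 bases before the start in *Retnla* and 82 in *Pdcd1lg2*, and *Tmem26* held a pair, at 227 and 41 bases. Among genes that were not called, *Il1rn* held 1 match, which lay 121 bases before 1 start and 201 before another. *Tnfaip3* held 1 match at 242 bases and *Cd209e* 1 at 79. The strongly responding *Mrc1*, *Socs1*, *Cish* and *Chil3* held no match in the windows searched, which ran from 250 bases before to 50 after the start, while *Cish* held 2 matches to the form with a shorter spacer given next and *Chil3* held 1, 172 bases before the start. The motif, searched on both strands, was in 7.42% of 889 windows of genes called higher, 5.56% of 737 windows of genes called lower and 5.63% of 14753 windows of all genes tested. The form with a spacer of 3 bases, TTCNNNGAA, was in 7.20, 7.06 and 7.21%. A loose form of the core of the antioxidant response element, to which Nrf2 binds, was TGANNNNGC. It was in 44.7, 41.9 and 42.4%. The paper gives this core as TGAG/CnnnGC, so the form searched leaves free a base that the core limits to G or C. A match describes the letters and not binding, and windows of the same gene can overlap.

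A few inhibitors of cytokine signalling rose strongly, while most of their list was not called. *Cish* and *Socs1*, which block cytokine receptors and JAK kinases in a negative feedback, had Con levels of -3.08 and -3.10 and of -0.66 and -1.29. In M2 they were at 4.29 and 4.18 and at 5.01 and 4.85, so that all M2 arrays lay above all Con arrays. The rises were 7.32 ± 0.10 and 5.90 ± 0.19 (160-fold and 59.8-fold, adjusted p = 7.27e-07 and 6.30e-05). *Socs2* rose by 3.72 ± 0.17 and *Ptpn2*, a phosphatase of JAK and STAT proteins, by 0.86 ± 0.10 (adjusted p = 2.35e-04 and 0.00511). Of 15 feedback inhibitors tested, these 4 were called higher and none lower, with a list median of 0.22, and all 4 calls held without any 1 of the arrays. Among 19 genes of the IL-4 receptor and its signalling, *Jak2* rose by 1.93 ± 0.19, *Stat3* fell by 0.68, and *Il13ra2*, a receptor chain that binds IL-13 without signalling through STAT6, was at background in Con (-9.06 and -9.14) and at -5.14 and -5.35 in M2, at least 3.7-fold higher (adjusted p = 0.00304, 0.00863 and 4.64e-04). The call of *Stat3* was lost without Con culture 2 or M2 culture 2 (highest adjusted p = 0.0702), that of *Il13ra2* with normexp (0.53, adjusted p = 0.612), and the median of these 19 genes was 0.02.

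**Figure D1:**
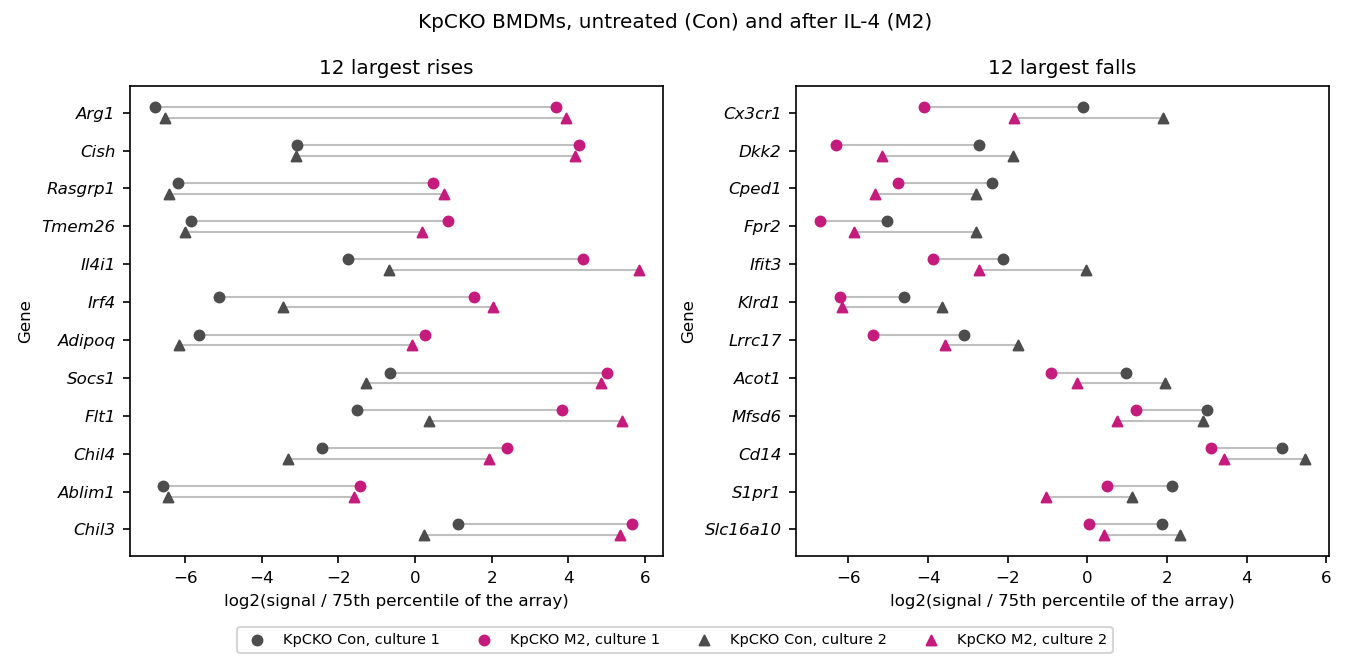
Levels of the 12 genes with the largest rises (left) and the 12 with the largest falls (right) among genes called and measured above background on all 4 arrays, in KpCKO Con (grey) and KpCKO M2 (magenta) of culture 1 (circles) and culture 2 (triangles). The horizontal axis is log2 of the signal over the 75th percentile of the array, and lines join the arrays of the same mouse. *Arg1* has the longest lines, from -6.80 to 3.69 in culture 1, and among the falls the Con and M2 arrays of *S1pr1*, *Fpr2* and *Cx3cr1* lie apart by culture as well as by stimulus.

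The plot of levels by array holds the remaining large rises. *Tmem26* had -5.84 and -6.00 in Con and 0.85 and 0.18 in M2, a rise of 6.43 ± 0.48 or 86.4-fold (adjusted p = 0.00129). *Il4i1*, a secreted amino acid oxidase first known as an IL-4-induced gene, rose by 6.32 ± 0.23 from -1.75 and -0.67 to 4.38 and 5.84 (adjusted p = 8.77e-05). Both genes were clearly separated between Con and M2. *Adipoq*, the fat cell hormone adiponectin, rose by 6.00 ± 0.39 and *Ablim1*, an actin-binding protein, by 5.01 ± 0.36 (adjusted p = 9.73e-04 and 0.00121). *Rasgrp1*, an exchange factor that activates Ras, rose by 6.92 ± 0.35 on its brighter probe, but by 1.10 on its other probe, so its size is uncertain. Calls of these 5 genes held without any 1 of the 4 arrays and with normexp, where the differences of *Rasgrp1*, *Adipoq* and *Ablim1* were 4.59, 3.96 and 2.45. Others were at background on both Con arrays and above it on both M2 arrays: *Msx3*, a homeobox gene, at least 39.1-fold higher, and the sodium channel genes *Scn1a* and *Scn3a*, at least 34.3-fold and 30.4-fold higher (adjusted p = 0.0012, 0.00502 and 0.00134), and all 3 were called with normexp too, where the log2 difference of *Msx3* was 2.50.

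Of 29 transcription regulators linked to IL-4, 13 were called higher and 1 lower, with a median of 0.76. *Irf4*, which drives many M2 genes, had -5.11 and -3.44 in Con and 1.53 and 2.04 in M2, a rise of 6.06 ± 1.08 (adjusted p = 0.0199), with a wide gap between the 2 Con arrays. *Batf3*, a partner of AP-1 proteins, rose by 4.54 ± 0.41 from 0.01 and 0.61 to 4.64 and 5.05 (adjusted p = 0.00217). *Gata3*, *Ppargc1b*, a coactivator of oxidative metabolism, *Egr2* and *Myc* rose by 3.56, 2.75, 2.50 and 2.25. Further rises were those of *Egr3* (2.28), *Tfec* (2.21), *Bhlhe40* (1.84), *Klf4* (1.71), *Kdm6b* (1.43), *Pparg* (1.04) and *Ets2* (1.01), all log2 differences. *Egr3* was dim, with 1 of the 2 Con arrays above background, and with normexp its difference was 0.40 (adjusted p = 0.882) and that of *Gata3* 2.03 (0.00811). *Maf* fell by 1.43, from 3.14 and 3.47 to 1.92 and 1.82 (adjusted p = 0.0239). The calls of *Batf3*, *Ppargc1b*, *Myc* and *Bhlhe40* held without any 1 of the arrays. The other 10 were lost without at least 1 of them, *Irf4*, *Egr2*, *Tfec*, *Ets2* and *Maf* without each of the 4, with adjusted p between 0.0529 and 0.173 at their highest.

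Of 23 chemokines, 7 were called higher and 1 lower, and the median was 0.22. *Ccl17*, a ligand that draws T helper cells, rose by 4.21 ± 0.37, from -4.69 and -5.06 to -1.28 and -0.05 (adjusted p = 0.00203). *Ccl24*, which draws eosinophils, rose by 3.96 ± 0.59 with levels of -3.54 and -1.16 in Con and 0.61 and 2.61 in M2, the 2 Con arrays being further apart than Con of culture 2 and M2 of culture 1. The monocyte chemokines *Ccl2*, *Ccl7* and *Ccl12* rose by 2.14, 2.62 and 3.60 (adjusted p = 4.34e-04, 0.00134 and 0.00579), *Ccl22* by 2.28 and *Ccl4* by 1.48, and *Cxcl14* fell by 0.97. *Ccl12* and *Ccl22* were above background on 1 of the 2 Con arrays, and with normexp neither was called, with differences of 1.20 and 0.54 (adjusted p = 0.116 and 0.658). The calls of *Ccl2*, *Ccl7*, *Ccl12* and *Ccl17* held without any 1 of the arrays, that of *Ccl24* was lost without Con culture 1 or M2 culture 2, and those of *Ccl4*, *Ccl22* and *Cxcl14* without each of the 4 (highest adjusted p between 0.0771 and 0.141). Of 9 chemokine receptors none was called higher and 2 were called lower, beside 5.69% higher and 4.55% lower of all genes. *Cx3cr1*, the fractalkine receptor of monocytes, had the largest fall among all genes, from -0.12 and 1.91 to -4.10 and -1.85, or 14.6-fold lower (-3.87 ± 0.54, adjusted p = 0.00918). Its M2 level in culture 2 lay below Con of culture 1 by less than the cultures differed within a condition, its second probe fell by 2.17, and the call was lost without Con culture 2 or M2 culture 1 (highest adjusted p = 0.0748). *Ccrl2* fell by 1.19, a call lost without each array but M2 of culture 1 (highest adjusted p = 0.131).

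Of 28 genes of innate recognition and inflammation, 6 were called lower and 2 higher, with a median of -0.31, beside 4.55% lower and 5.69% higher of all genes. The balance of the directions was not tested. *Cd14*, the co-receptor for LPS, had 4.89 and 5.45 in Con and 3.09 and 3.43 in M2, a fall of 1.91 ± 0.12 (adjusted p = 9.62e-04). *Clec4d*, a lectin receptor for microbial glycolipids, fell by 1.56 ± 0.19 (adjusted p = 0.00565), and *Clec4e*, its partner, by 1.66. *Fpr2*, a formyl peptide receptor, *Irak3*, a brake on Toll-like receptors, and *Cd80* fell by 2.36, 0.98 and 0.68. *Cd40*, the receptor for T cell help, went the other way, from -3.09 and -1.97 to 0.21 and 1.60, 10.8-fold higher (3.43 ± 0.35, adjusted p = 0.00304), and *Cd86* rose by 0.96. The cytokine genes *Tnf* (-0.13), *Il1b* (-0.47) and *Il6* (-0.04) were not called, and *Nos2* was at background on all 4 arrays. The calls of *Cd14*, *Clec4d* and *Cd40* held without any 1 of the arrays, those of *Irak3*, *Cd86* and *Clec4e* were lost without each of the 4, and those of *Fpr2* and *Cd80* without Con culture 2 or M2 culture 2 and 1 more array (highest adjusted p between 0.0898 and 0.188). With normexp the differences of *Fpr2* and *Cd80* were -0.87 and -0.39 (adjusted p = 0.198 and 0.6).

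The other large falls concerned genes of several kinds. *Dkk2*, a secreted regulator of Wnt signalling, fell by 3.43 ± 0.48, from -2.72 and -1.88 to -6.30 and -5.15. *Cped1* fell by 2.46 ± 0.16 and *Mfsd6*, a membrane transporter family member, by 1.96 ± 0.14 (adjusted p = 0.00928, 0.00102 and 0.00128). *Slc16a10*, a transporter of aromatic amino acids, fell by 1.87 on its brightest probe and by 0.77 and 1.72 on its others. *S1pr1*, a sphingosine phosphate receptor, *Acot1*, a thioesterase of fatty acyl-CoA, *Klrd1*, a lectin-like receptor of natural killer cells, and *Lrrc17* fell by 1.89, 2.03, 2.06 and 2.06. Of the 12 largest falls, 4 calls (*Cped1*, *Mfsd6*, *Cd14* and *Slc16a10*) held without any 1 of the arrays, against 11 of the 12 largest rises. Those of *Dkk2*, *Ifit3*, *Klrd1* and *Lrrc17* were lost without each of the 4, that of *Acot1* without each but Con culture 1, and that of *S1pr1* without each but M2 culture 1 (highest adjusted p between 0.0621 and 0.228). With normexp *Dkk2* differed by -1.91 and was called, whereas *Cped1* (-1.31), *Klrd1* (-0.68) and *Lrrc17* (-1.31) were not (adjusted p = 0.127, 0.433 and 0.113). Genes above background in Con and at background on both M2 arrays were dim throughout. The largest were *Gpr141*, an orphan receptor, and *Tal2*, a helix-loop-helix factor, both at least 3.1-fold lower. Their limma adjusted p of 0.0133 and 0.0376 came from the measured values, not from the bound. With values raised to the lowest signal above background, it was 0.0715 and 0.0642, so neither was called. Calls of this kind did not hold in all 4 fits for any of the 5 genes with the largest bounds, nor did any hold with normexp.

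**Figure D2:**
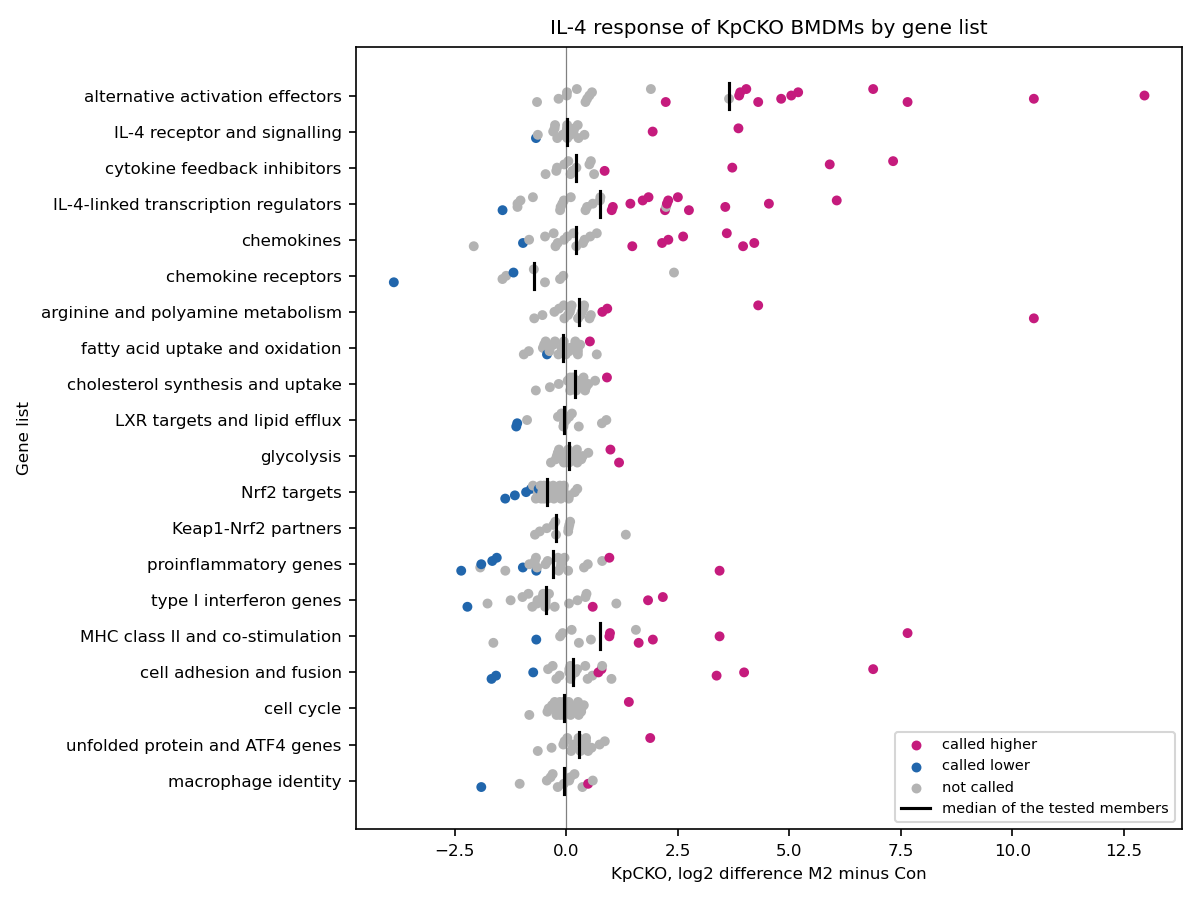
Log2 difference between KpCKO M2 and KpCKO Con for each tested member of 20 gene lists, 1 point a gene, coloured by whether the gene was called higher, called lower or not called; black bars are the median over the tested members. Members at background in both groups are not drawn, and members at background in 1 group are drawn at their measured difference. The effectors reach furthest to the right with a median of 3.64 (2.09 in culture 1 and 4.09 in culture 2), and most points of the Nrf2 targets lie left of 0 with a median of -0.43.

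Nrf2 targets were mostly lower after IL-4, by small amounts. Of 39 tested, 34 were lower in both cultures and 2 higher in both, against 8158 lower and 8521 higher in both of all 22351 genes, and the median was -0.43 in culture 1 and -0.43 in culture 2. Only 5 were called lower and none higher, beside 4.55% lower and 5.69% higher of all genes. *Gsr*, glutathione reductase, fell from 3.11 and 2.70 to 1.84 and 1.22, by 1.37 ± 0.18 (adjusted p = 0.00772), and its 2 other probes fell by 1.22 and 1.49. *Akr1b8*, an aldo-keto reductase, fell from 5.99 and 5.74 to 4.76 and 4.65, and *Gclm*, a subunit of the enzyme that starts glutathione synthesis, from 3.23 and 2.56 to 2.40 and 1.57 (adjusted p = 0.00697 and 0.0261). Con and M2 did not overlap in these 3 genes, which were called on the same values. In *Gclm*, Con of culture 2 and M2 of culture 1 were close. *Cat*, catalase, fell by 0.80 and *Abcc1*, an exporter of glutathione conjugates, by 0.62 (adjusted p = 0.0118 and 0.0242).

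*Nqo1*, the quinone reductase often used as an Nrf2 readout, had 1.29 and 1.48 in Con and 1.07 and 1.38 in M2 (adjusted p = 0.377), and *Hmox1*, heme oxygenase, 6.67 and 5.19 and 5.96 and 4.63 (adjusted p = 0.248); neither was called. *Nfe2l2*, which encodes Nrf2, was at 4.82 and 4.98 in Con and 4.63 and 4.70 in M2, and of 11 genes for partners of Keap1 and Nrf2 none was called, *Keap1* itself included (-0.60, adjusted p = 0.165). The list median stayed between -0.52 and -0.31 under every alternative setting, quantile normalization included (-0.44). None of the 5 calls held in all fits with 1 array left out: *Gsr* was lost without Con culture 1 (adjusted p = 0.0571), *Akr1b8* without Con culture 1 or M2 culture 2 (0.0529 at its highest), *Gclm* without each array but M2 of culture 1 (0.142), and *Cat* and *Abcc1* without each of the 4 (0.0805 and 0.128). In WT cells the median of these 39 genes was -0.38, with 10 called lower and none higher.

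**Figure D3:**
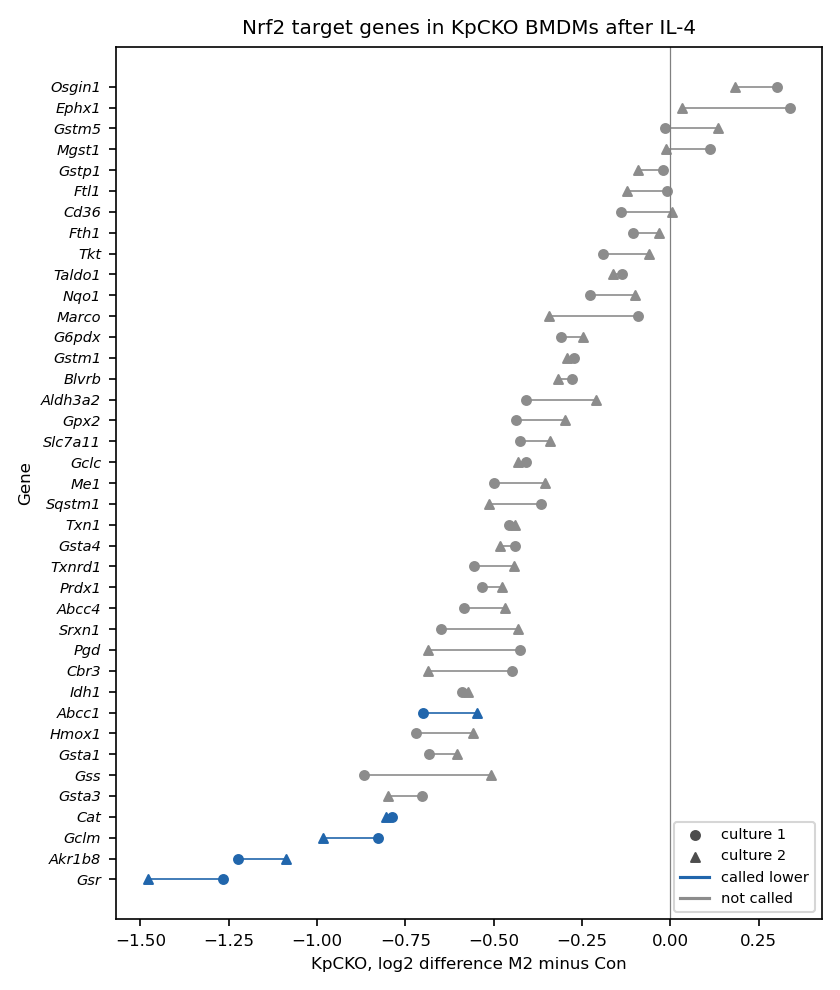
Log2 difference between KpCKO M2 and KpCKO Con of 39 Nrf2 target genes in culture 1 (circles) and culture 2 (triangles), ordered by their mean; blue marks the 5 genes called lower. Lines join the cultures of a gene, and 34 genes lie left of 0 in both, *Gsr* furthest at -1.27 and -1.48.

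Antigen presentation, adhesion and fusion genes contained further large rises. Of 14 genes of MHC class II and co-stimulation, 6 were called higher and 1 lower, with a median of 0.76. Beside *Pdcd1lg2*, *Cd40* and *Cd86* these were *Cd274*, the other PD-1 ligand (1.94), and *H2-DMa* and *H2-DMb1*, which load peptides on class II (1.62 and 0.98), each lost without at least Con culture 1 (highest adjusted p between 0.0623 and 0.205). Of 24 adhesion and fusion genes, 5 were called higher and 3 lower, beside 5.69% higher and 4.55% lower of all genes. *Itgb3*, an integrin chain, rose from 1.83 and 1.49 to 5.00 and 5.04 and *Ocstamp*, a gene of macrophage and osteoclast fusion, from -2.89 and -2.02 to 0.86 and 2.20 (adjusted p = 9.73e-04 and 0.00488). *Dcstamp* and *Cd44* rose by 0.79 and 0.72, although 1 of the 2 other probes of *Cd44* was at -0.12. The integrin chains *Itga4*, *Itga6* and *Itgal* fell by 1.68, 1.58 and 0.75. Calls of *Cdh1*, *Ocstamp*, *Itgb3* and *Itga6* held without any 1 of the arrays, and those of the other 4 were lost without 3 or all of them (highest adjusted p between 0.127 and 0.206).

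Most type I interferon genes were lower after IL-4, but few were called. Of 24, 16 were lower in both cultures and 7 higher in both. The calls were 3 higher and 1 lower, beside 5.69% higher and 4.55% lower of all genes. The median was -0.47, at -0.17 in culture 1 and -0.67 in culture 2. In WT cells the median of these genes was -0.99, with 8 called lower and none higher. *Ifit3* fell from -2.13 and -0.03 to -3.88 and -2.72 (adjusted p = 0.0368), and the level in Con was about 2 log2 units higher in culture 2. *Usp18*, which removes the ubiquitin-like protein ISG15, rose from -3.01 and -1.55 to -0.99 and 0.75 and *Zbp1*, a sensor of nucleic acid, from -2.87 and -1.17 to -0.62 and 0.24 (adjusted p = 0.0458 and 0.0131). *Usp18* in M2 of culture 1 lay above both Con arrays, but by less than the cultures differed within Con. No call of this list held in every fit with 1 array left out: *Zbp1* was lost without either M2 array and *Ifit3* and *Usp18* without each of the 4 (highest adjusted p between 0.0718 and 0.222).

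The metabolic lists held the following calls, to be read beside the 10.2% called among all genes. Of 22 genes of arginine and polyamine metabolism, *Arg1*, *Slc7a2*, *Srm*, spermidine synthase (0.91), and *Slc7a1* (0.80, with 0.01 on its other probe) were called higher and none lower. Of 21 glycolysis genes, *Pfkp* and *Pfkfb4*, which act on the phosphofructokinase step, rose by 0.99 and 1.18. Fatty acid uptake and oxidation had 1 of 26 called higher (*Hadhb*, 0.53) and 1 lower (*Slc27a4*, -0.44), cholesterol synthesis and uptake 1 of 20 higher (*Dhcr7*, 0.91), and LXR targets 2 of 13 lower (*Apoc1*, -1.13, and *Mylip*, -1.10). *Cdkn1a*, an inhibitor of the cell cycle, was the sole call among 30 cell cycle genes (1.40 ± 0.16, adjusted p = 0.00541), and *Pdia4*, a chaperone of the endoplasmic reticulum, among 20 genes of the unfolded protein response (1.88 ± 0.23, adjusted p = 0.00645). The calls of *Arg1*, *Slc7a2*, *Pfkp* and *Cdkn1a* held without any 1 of the arrays, that of *Pdia4* was lost without Con culture 2 (adjusted p = 0.0577), *Srm* and *Apoc1* without each array but Con culture 1, *Mylip* without Con or M2 of culture 2, and *Slc7a1*, *Pfkfb4*, *Hadhb*, *Slc27a4* and *Dhcr7* without each of the 4 (highest adjusted p between 0.0877 and 0.19).

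Few cell type markers were called. Of macrophage markers *Cd14* fell as above and *Spi1*, the transcription factor PU.1, rose by 0.49 (a call lost without each of the 4 arrays, highest adjusted p = 0.21), and the summed signal of the list was 955 and 969 times the 75th percentile in Con and 1003 and 986 in M2. Of 15 tested neutrophil markers none was called, and their sum was 25.1 and 18.2 in Con and 28.5 and 16.6 in M2, higher in culture 1 in both. The sum of dendritic cell markers went from 1.52 and 1.98 to 25.8 and 33.7, the 1 marker of 8 tested that was called being *Batf3*, which is also among the regulators above. Without *Batf3* the sum of the other 7 was 0.515 and 0.452 in Con and 0.755 and 0.492 in M2, and the part of dendritic cells in the result was not tested. None of the tested mast cell, basophil or eosinophil (8), T or NK cell (5), B cell (5), stromal (8) or erythroid and megakaryocyte (7) markers was called, and 4 of 12, 5 of 10, 3 of 8, 1 of 9 and 3 of 10 markers of these lists had no matched probe or were at background on all 4 KpCKO arrays, among them *Cd3d*, *Cd8a*, *Ms4a1*, *Pax5* and *Epx*. Fewer cells of a type and less RNA in each cell cannot be told apart in such bulk samples.

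The responses of KpCKO and WT cells were compared by testing the difference between them gene by gene. In WT, 3763 genes (16.8%) were called, 1928 higher (8.63%) and 1835 lower (8.21%), and 1079 genes were called higher and 884 lower in both genotypes, with none called in opposite directions. Across 19156 genes, the mean responses of the 2 genotypes correlated at r = 0.915, where all Con and all M2 arrays shared their slides. This value is for means over 2 cultures and is not to be set against values for single cultures. Between single cultures, r was 0.782 within KpCKO, 0.874 within WT and 0.763 to 0.897 between the genotypes. Of genes called higher in KpCKO, 99.37% moved the same way in WT and 57.5% moved less in KpCKO than in WT, and of those called lower 61.5% moved less. Among genes called higher or lower in WT, 81.2% and 85.3% moved less in KpCKO, so these shares depend on the genotype that chose the genes and are given as a description. The test of the difference called 2 genes (0.00895% of those tested). It gave 450 of 22351 genes an unadjusted p under 0.05, a smaller share than the 0.05 expected if no gene differed. In simulated data this test recovered 6% of differences of 2-fold and 67% of 4-fold, so differences of that size would often be missed with 2 arrays a group.

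*Olfr20*, an odorant receptor gene, was at background on both KpCKO Con arrays (-9.37 and -9.02) and at -4.86 and -5.21 in KpCKO M2, at least 4.28-fold higher, whereas it was at background on all 4 WT arrays (adjusted p of the difference 0.0373). *Clvs2*, a lipid-binding protein, was at background on all 4 KpCKO arrays, and the difference came from WT, with -4.43 and -4.83 in Con and background in M2 (adjusted p 0.00798). Both genes were dim on the arrays that measured them and entered the test through a single group, so the p sets that group against values at background. With values below the lowest signal above background set to it, with normexp, or with genes above background on all 4 KpCKO arrays, 0 genes were called (523, 325 and 324 at an unadjusted p under 0.05). Leading M2 genes gave no call, with a response of 10.48 ± 0.31 against 10.38 ± 0.31 in WT for *Arg1*, 7.32 ± 0.10 against 6.92 ± 0.10 for *Cish* and 3.87 ± 0.14 against 3.47 ± 0.14 for *Mrc1* (unadjusted p of the difference 0.841, 0.0262 and 0.0916, adjusted p 1 for each).

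Some members had a response that differed in size between the genotypes without passing the test, and *Egr2* differed already in Con. *Egr2* was at 3.85 and 3.60 in KpCKO Con and 6.22 and 6.22 in KpCKO M2, against 0.37 and 1.11 in WT Con and 5.55 and 6.11 in WT M2. It was higher in KpCKO than WT by 2.98 in Con (adjusted p = 0.0326) and by 0.39 in M2 (0.799), and its response was 2.50 against 5.09 (unadjusted p = 0.00682, adjusted p = 1). *Usp18* had the opposite order, with -0.26 and 0.17 in WT Con, above both KpCKO Con arrays, and a response of 2.16 in KpCKO against 0.15 in WT (unadjusted p = 0.0295, adjusted p = 1). The Con arrays enter both the comparison of genotypes and the response, so these values are not independent of each other. *Ccl2*, *Ccl7*, *Itgb3* and *Cdkn1a* rose by 2.14, 2.62, 3.37 and 1.40 in KpCKO and by 2.92, 3.52, 4.53 and 2.16 in WT, with unadjusted p of 0.00248, 0.0164, 0.00749 and 0.0139 and none past the adjusted threshold.

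**Figure D4:**
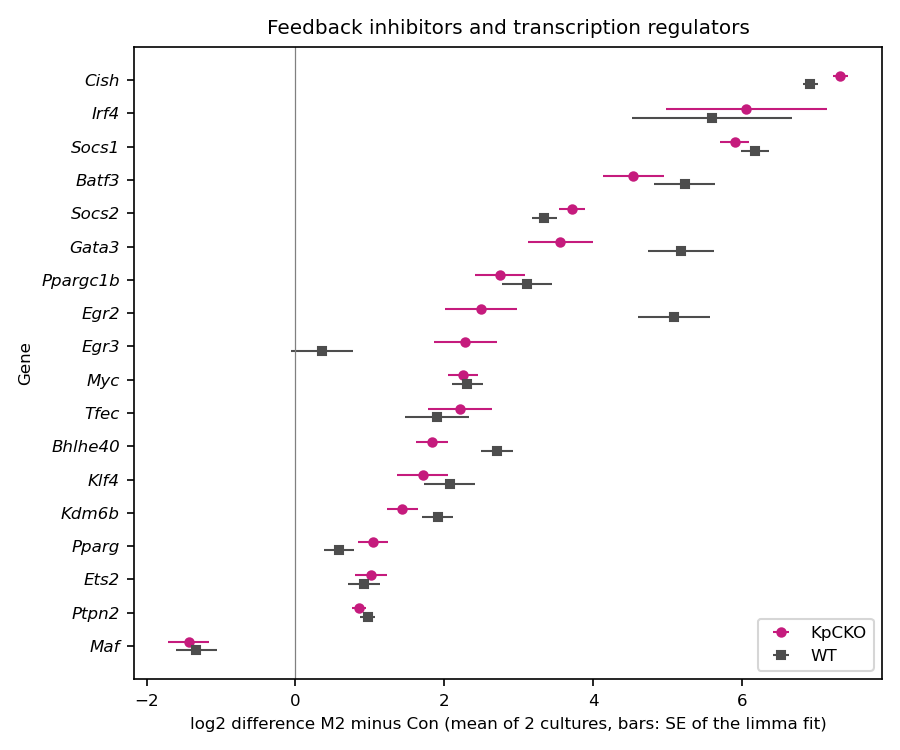
Log2 difference between M2 and Con in KpCKO (circles) and WT (squares) for the 18 feedback inhibitors and transcription regulators called in KpCKO; points are means of 2 cultures and bars the SE of the limma fit. *Cish*, *Socs1* and *Irf4* lie close together in both genotypes, and *Egr2* (2.50 against 5.09) and *Egr3* (2.28 against 0.36, with 1 of the 4 WT arrays and 3 of the 4 KpCKO arrays above background) lie furthest apart, neither passing the test of the difference after adjustment.

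**Figure D5:**
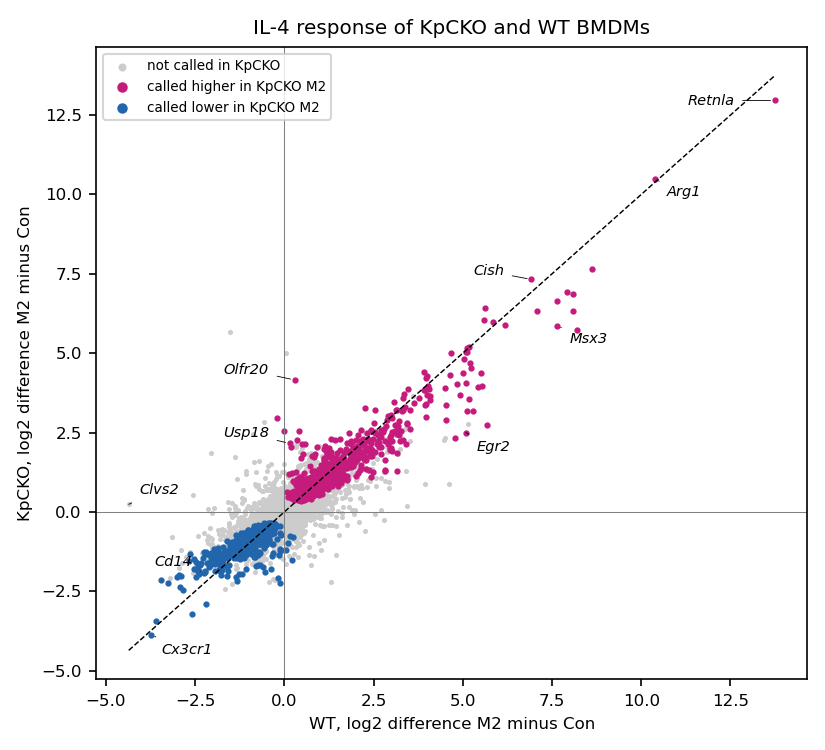
Log2 difference between M2 and Con of every tested gene with a symbol in WT (horizontal) and KpCKO (vertical). Genes called higher (magenta) or lower (blue) in KpCKO are coloured, and the line of equal response is dashed. Tested transcripts without a symbol are not drawn, and genes at background in 1 group are drawn at their measured difference. Points lie along the line from *Cx3cr1* to *Retnla*, and *Olfr20* and *Clvs2*, the 2 genes past the test of the difference, lie near the axes.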

How the data were processed

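RNA of 12 BMDM samples was labelled with Cy3 and hybridised to 1-colour Agilent mouse arrays. Per the file headers, the authors scanned the arrays and extracted, with Agilent Feature Extraction 10.7.3.1, a background-subtracted intensity for each of 43379 spots, median intensities for spot and surrounding area, and flags that mark spots as above background, saturated or uneven. A series-wide matrix of log2 values deposited by the authors matched log2 intensity less the 75th percentile of the array, centred on the median of each probe.

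Spots flagged as outliers were left out, spots of a probe averaged (41174 probes), and log2 of the processed intensity less the 75th percentile of the array was used. Of these, 26690 probes matched 18217 symbols through RefSeq accessions, and each gene was represented by its brightest probe. Genes whose probe was flagged well above background on the 2 arrays of any of the 6 groups were tested with limma 3.58.1 (R 4.3.3) on all 12 arrays, with group and culture as terms (5 residual degrees of freedom), Benjamini-Hochberg adjustment and a threshold of 0.05. Culture was a term because same-numbered arrays shared a culture and, within a genotype, a mouse. The term was shared by both genotypes, so differences between the mice of a culture stayed in the spread. With mouse as the block instead, 2175 genes were called and 8 of the 104 named calls were lost. Deviations of same-numbered arrays correlated at r = 0.597 between KpCKO Con and KpCKO M2, and at 0.162 to 0.597 over all pairs of groups. Each group had 2 arrays, and their number limits the precision. The p-values rest on the spread left after the group and culture terms, pooled over all 6 groups. That is not the spread between the 2 KpCKO cultures alone. For a gene at background in 1 group, a lower bound of the fold was computed against the lowest signal above background on each array.

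The comparison, the gene lists and the rules were chosen with earlier results of these data known. Genes named were the 12 largest rises and falls that were called, above background on all 4 KpCKO Con and M2 arrays and over 2-fold in both cultures; the 5 largest bounds each way; genes past the test of the difference; members of the lists; and *Keap1* and *Nfe2l2*. The values of 1 called list member are not reported here, though counts include it. On simulated arrays with known changes the fit recovered 46% of 2-fold and 84% of 4-fold responses of KpCKO, with 5 false calls. Promoters came from RefSeq (GRCm38.p6), and 50 of 66 genes looked up had an entry. Alternatives for normalization, background, filters, probes, blocks and arrays are given at the end. Slide could not be used as a block, since each slide held 1 stimulus.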

Additional observations from a re-analysis of the deposited data

Results flagged for a closer look

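The IL-4 response of 2 genes differed between KpCKO and WT past the adjusted threshold, and each differed because the gene was measurable in a single group of the 4. *Clvs2* (adjusted p = 0.00798) was above background in WT Con alone, so its KpCKO arrays gave no response. *Olfr20* (adjusted p = 0.0373) was above background on both KpCKO M2 arrays, at -4.86 and -5.21, and at background on the KpCKO Con arrays and on all 4 WT Con and M2 arrays. Each rests on 1 probe, and both were dim.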

How the results depend on the processing

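No response of the 104 named genes that were called changed direction under any alternative, whereas uncalled ones with values near 0, such as *Il6* (-0.70 to 0.61) and *Tnf* (-0.48 to 0.22), took both signs. Of the 104, 44 stayed called without any 1 of the 4 KpCKO arrays. The 2290 calls became 992 with a fold above 2 added, 690 with normexp (457 higher and 233 lower), 1234 without a filter on dim probes and 1 with only the 4 KpCKO arrays fitted (6352 at an unadjusted p under 0.05). Without the replicate block there were 895 calls, and 42 of the 104 named calls were lost, against 37 with normexp, 27 without a filter on dim probes and 103 with only the 4 KpCKO arrays. The methods' t-test, unpaired, gave 2554 genes at an unadjusted p under 0.05 and 0 after Benjamini-Hochberg adjustment. Leaving out 1 array gave 489 to 817 calls, the lone array being assumed to vary like the other groups. Quantile normalization, the authors' matrix, a floor, other filters (one, over the 4 Con and M2 groups, chosen after seeing the data), mean probes, single probes, mouse as a block, arrays without M1, trend with robust and array weights stayed within 1.5 times of the main count.

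The 2 genes whose response differed between genotypes became 1 without a filter and with mouse as a block, and 0 with normexp, with a filter on all 12 or on the 4 KpCKO arrays, with a floor, without the M1 arrays, or with trend and robust; leaving out 1 array gave 0 to 2. The 629 genes over a 2-fold rise and 350 over a 2-fold fall became 334 and 125 with normexp, 961 and 626 on the mean fold, 1388 and 1217 at 1.5-fold, and 164 and 14 at 4-fold. Falls alone became 596 without the need for a signal above background and 169 with every M2 array set against every Con array. A single culture gave 962 to 1122 rises and 553 to 1029 falls. The causes of these shifts were not tested. Slide as a block was not run, since stimulus and slide are the same split. Genes at background have only bounds, and 2 cultures limit small changes.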

Other observations

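Some large differences did not pass the test. *Il5*, a cytokine of eosinophils, was at background on both KpCKO Con arrays (-9.19 and -9.29) and above it on both KpCKO M2 arrays (-2.04 and -5.10), at least 11.8-fold higher, with an adjusted p of 0.142. *Kcng3*, a potassium channel subunit, went from -9.26 and -9.34 at background to -4.19 and -4.37, at least 7.23-fold higher, with an adjusted p of 0.155. *Mical3*, an enzyme that oxidises actin, was at -5.26 and -5.45 in Con and -2.52 and -2.53 in M2, with an adjusted p of 0.0512 in limma. These genes were chosen after their values were seen.
*Ptgir*, the prostacyclin receptor, rose by 1.30 in KpCKO and by 3.15 in WT, and had the lowest unadjusted p for the difference among genes above background on all 8 Con and M2 arrays (0.00133, adjusted p = 1).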
